A study of Mus musculus with 36 samples.

Results

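The Cyp3a genes of the mouse encode cytochrome P450 enzymes of family 3, subfamily A, and their mRNAs were described in developing liver by the symbols in the deposited table of FPKM values (fragments per kilobase of exon, scaled to 1000000 mapped fragments). The 9 genes were Cyp3a11, Cyp3a13, Cyp3a16, Cyp3a25, Cyp3a41a, Cyp3a41b, Cyp3a44, Cyp3a57 and Cyp3a59, chosen by their measured FPKM in neonatal and adult mice of these same data, so those levels are given as a description and were not tested. A row was found for 8 of the 9 among 21889 gene symbols, and Cyp3a41b was not analysed here. The livers came from 36 male C57BL/6 mice (C57BL/6J in the study's methods), 3 at each of 12 ages, drawn at random from several litters. The ages were GD17.5 (late gestation, which the sample labels call Day -2), Day 0 (just after birth, before suckling), Days 1, 3, 5, 10, 15 and 20 (suckling) and Days 25, 30, 45 and 60 (after weaning, which took place between Day 20 and Day 25). In the study's methods Day 0 and Day 1 were timed from birth, and livers from Day 3 on were collected at a fixed morning hour. The study followed genes across ages and took Day 60 as the adult age.

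CYP3A enzymes sit in the endoplasmic reticulum and oxidize steroids, bile acids and a large share of foreign compounds, using electrons passed on by cytochrome P450 oxidoreductase. Mammals carry several of these genes side by side, and the liver is known to use different ones before and after birth, as with CYP3A7 and CYP3A4 in humans. In mouse liver Cyp3a11 is known as the main adult form, Cyp3a16 as a form of early life, and Cyp3a41a and Cyp3a44 as forms that adult females keep, whereas the nuclear receptors Nr1i2 (the pregnane X receptor) and Nr1i3 (the constitutive androstane receptor) are known activators of Cyp3a11.

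In the GENCODE M1 annotation of NCBI37/mm9, 8 of the 9 genes lie in 1 cluster of 819 kb on chromosome 5, and Cyp3a13 (chr5:138334160-138362847, minus strand) lies 7.74 Mb away. The cluster runs from Cyp3a57 (chr5:146106148-146151381, plus strand) through Cyp3a16 (chr5:146197178-146230592), Cyp3a41b (chr5:146319544-146345599), Cyp3a41a (chr5:146505635-146531712), Cyp3a44 (chr5:146585559-146617450), Cyp3a11 (chr5:146666002-146691540) and Cyp3a25 (chr5:146788770-146821194), all on the minus strand, to Cyp3a59 (chr5:146890834-146924861, plus strand). Each gene has 13 exons, and the coding length is 1512 bases in Cyp3a13, Cyp3a25, Cyp3a57 and Cyp3a59 and 1515 bases in the others. By sequence the cluster held a pair of groups. Coding identity was at least 92.4% among Cyp3a11, Cyp3a16, Cyp3a41a, Cyp3a41b and Cyp3a44, at least 93.9% among Cyp3a25, Cyp3a57 and Cyp3a59, and at most 76.1% between the groups.

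**Figure D1:**
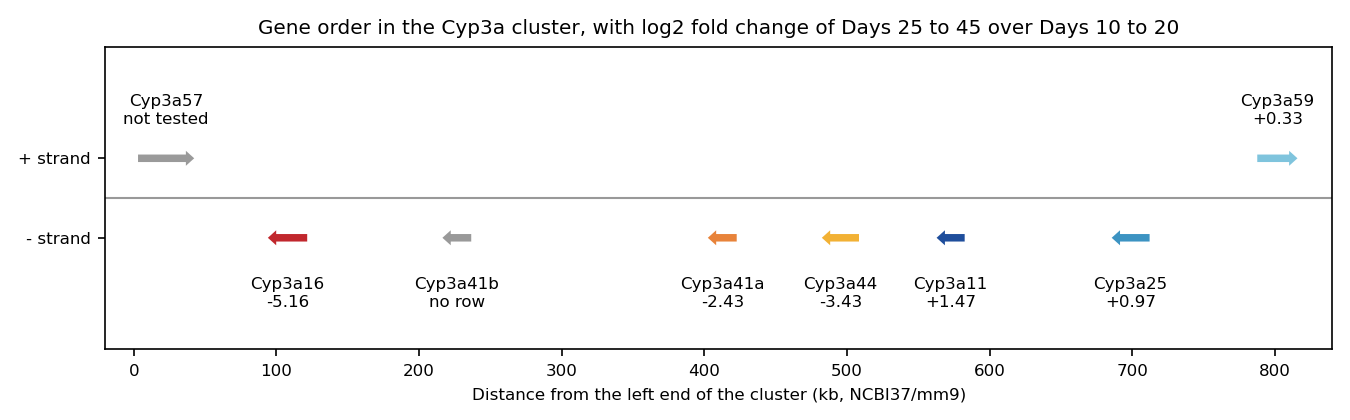
Order and strand of the 8 clustered Cyp3a genes, with the distance from the left end of the cluster in kb on the x axis and the strand on the y axis. The number under each name is the log2 fold change of Days 25, 30 and 45 over Days 10, 15 and 20, which was below 0 for Cyp3a16 (-5.16), Cyp3a41a (-2.43) and Cyp3a44 (-3.43) and above 0 for the 3 genes to their right.

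The sequences before the start sites are shown because neighbouring genes with related upstream sequence went opposite ways after weaning. In these livers Cyp3a44 was lower and Cyp3a11 higher at Days 25 to 45 than at Days 10 to 20. For Cyp3a16, Cyp3a44, Cyp3a25 and Cyp3a59, the 250 bases before the start site are printed (chr5:146230593-146230842, chr5:146617451-146617700 and chr5:146821195-146821444 on the minus strand and chr5:146890584-146890833 on the plus strand). For Cyp3a11 the annotated gene reaches 110 bases into that window, and the 140 bases outside it are printed (chr5:146691541-146691680, minus strand). The sequences are those of RefSeq (build GRCm38.p6), which listed all 9 genes, and each was found once and without change in NCBI37/mm9. They read from 5′ to 3′, with capitals for TGTTTAC, a core of forkhead factor sites, and for AGGTCA, a core of nuclear receptor sites, on either strand.

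Cyp3a16: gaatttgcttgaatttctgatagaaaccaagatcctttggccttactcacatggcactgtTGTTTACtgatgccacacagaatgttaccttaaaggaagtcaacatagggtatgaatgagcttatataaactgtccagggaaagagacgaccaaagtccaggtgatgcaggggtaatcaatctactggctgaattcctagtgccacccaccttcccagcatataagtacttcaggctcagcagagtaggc
Cyp3a44: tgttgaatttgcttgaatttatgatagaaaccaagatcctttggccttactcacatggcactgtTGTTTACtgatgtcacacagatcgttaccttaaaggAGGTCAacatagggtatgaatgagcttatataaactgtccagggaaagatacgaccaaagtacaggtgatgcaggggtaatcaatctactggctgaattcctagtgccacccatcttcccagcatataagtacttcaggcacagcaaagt
Cyp3a11: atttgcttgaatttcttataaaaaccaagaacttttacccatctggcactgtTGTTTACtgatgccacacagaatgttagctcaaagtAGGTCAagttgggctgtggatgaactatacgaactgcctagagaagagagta
Cyp3a25: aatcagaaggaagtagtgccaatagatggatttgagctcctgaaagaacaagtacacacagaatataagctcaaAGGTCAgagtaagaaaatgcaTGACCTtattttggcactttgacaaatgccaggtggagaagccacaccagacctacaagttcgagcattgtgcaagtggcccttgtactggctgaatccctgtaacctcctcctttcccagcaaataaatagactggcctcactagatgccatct
Cyp3a59: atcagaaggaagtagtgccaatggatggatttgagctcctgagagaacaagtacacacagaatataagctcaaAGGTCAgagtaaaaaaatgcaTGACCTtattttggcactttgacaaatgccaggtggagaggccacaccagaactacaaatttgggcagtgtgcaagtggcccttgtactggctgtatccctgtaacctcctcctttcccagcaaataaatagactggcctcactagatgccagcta

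Identity of the 250 bases was 92.9% between Cyp3a16 and Cyp3a44, 76.2% between Cyp3a11 and Cyp3a16 and 94.8% between Cyp3a25 and Cyp3a59, and it was 52.7% between Cyp3a11 and Cyp3a25. TGTTTAC was found once in the windows of Cyp3a11, Cyp3a16, Cyp3a41a, Cyp3a41b and Cyp3a44, at 198 to 192 bases before the start site in Cyp3a11, 190 to 184 in Cyp3a16 and 186 to 180 in the other 3, and in none of the other 4. Of 32851 promoter windows of the same length in the RefSeq table, 3.17% held it. AGGTCA was found in Cyp3a25, Cyp3a57 and Cyp3a59 as 2 matches, 1 on each strand, in Cyp3a11 and Cyp3a44 as 1 match, and not in the other 4 windows, against 14.02% of all windows. The related AGTTCA was found in Cyp3a11, Cyp3a41a and Cyp3a41b (11.8% of all windows), and TATAA in 8 of the 9 windows, Cyp3a13 excepted (22.8% of all windows). The first 3 motifs did not overlap one another, while matches of TATAA on the 2 strands overlapped in the 5 windows that held TGTTTAC, and AGTTCA shared 1 base with TATAA in Cyp3a41a and Cyp3a41b. A match in these letters is not a bound site.

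The depth behind the values was read from their steps, since no counts were used here. In 1683 rarely detected genes, 78.2% of the values came out whole when expressed in fragments, with a tolerance of 0.1 fragment. The lowest values of each gene set its unit of 1 fragment, so these are near whole by construction. The share is thus no test of the depth. By these steps the relative depth of the 36 libraries was between 0.883 and 1.29, and the median depth was about 83.5 fragments in units of 1000000. Summed FPKM was between 353712 and 450597. Reads of 100 bases could be shared between copies. Of the 100-base windows in the Cyp3a41a transcript, 88.4% also occur in Cyp3a41b, so the values listed for Cyp3a41a may hold reads of both, and the split is uncertain. At most 6.05% of the windows of the other measured members occur in another member. In 1 library, GD17.5 replicate 2, Xist, the RNA of the silenced X chromosome, was at 3.27 FPKM against at most 0.109 in the other 35, with all 4 Y-linked genes checked also above 0. Without that library the GD17.5 means were 2.28 FPKM for Cyp3a13, 0.0393 for Cyp3a25, 1.24 for Cyp3a41a and 0.0633 for Cyp3a59, and those of Cyp3a11, Cyp3a16 and Cyp3a44 stand beside their values. In Day 0 replicate 1 the summed FPKM of 8 skeletal muscle markers was 1343, against a lowest Day 0 value of 5.14, and each of the 8 measured Cyp3a genes was highest in that mouse among the 3 of its age.

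In the Days 0, 1, 3 and 5 livers together (12 mice) and the 3 livers of Day 60, the ranges were apart for Cyp3a11, Cyp3a16, Cyp3a41a and Cyp3a44. These levels chose the genes, and the share of all genes with ranges apart was not counted, so this is a description. Cyp3a16 was between 9.68 and 83.2 FPKM in the neonatal mice, with a median of 55.6, and between 0.0434 and 0.153 FPKM at Day 60. Cyp3a44 was between 6.34 and 175 FPKM (median 118) and then between 0.0789 and 0.194 FPKM. Cyp3a41a was between 6.67 and 86.3 FPKM (median 49.4) and then between 0.151 and 0.607 FPKM. The neonatal mean thus stood 506-fold, 683-fold and 123-fold above the adult mean for these 3 genes. Cyp3a11 went the other way, from 31.7 to 533 FPKM (median 289) in the neonatal mice to 1762 to 2556 FPKM at Day 60, with the adult mean 7.92-fold above the neonatal mean. The ranges of Cyp3a13, Cyp3a25, Cyp3a57 and Cyp3a59 overlapped between the same mice. Just inside that division stood Cyp3a11, whose highest neonatal value (533 FPKM) was below its lowest adult value (1762 FPKM), and just outside it Cyp3a13, whose highest neonatal value (38.0 FPKM) was above its lowest adult value (34.3 FPKM). In whole liver RNA, fewer cells with a transcript and less transcript per cell cannot be told apart. RNA of pancreatic acinar cells was present in part of these livers. The sum of 10 acinar markers was between 11.7 and 5889 FPKM in the neonatal mice and between 4.87 and 27717 FPKM at Day 60. Its part in the levels, the fold differences and the shares at these ages was not tested.

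**Figure D2:**
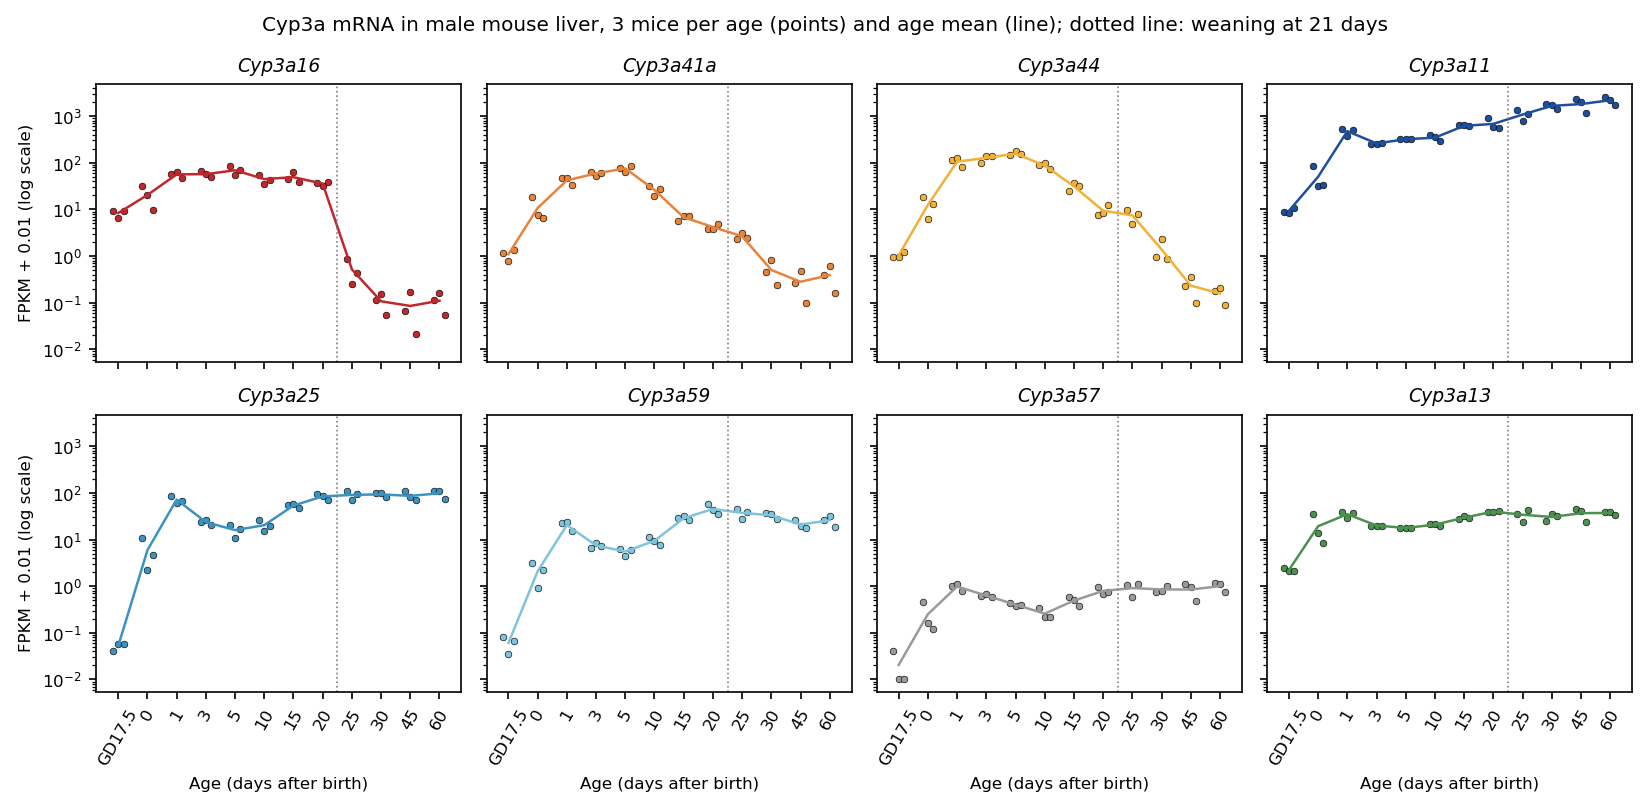
FPKM + 0.01 on a log scale against age for each of the 8 measured Cyp3a genes, with 1 point per mouse (3 per age) and a line through the age means. The Cyp3a16 points of Days 1 to 20 lie at 30.9 to 83.2 FPKM, and none is above 0.859 FPKM at Day 25 or later, whereas Cyp3a41a and Cyp3a44 are highest at Day 5 and decline over several ages.

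Cyp3a16, the form of early life, was still present in every mouse at the last age before weaning and was close to absent after it. In replicates 1, 2 and 3 it was at 9.45, 6.54 and 9.05 FPKM at GD17.5 (mean 8.34, and 9.25 without replicate 2). It reached 58.0, 64.4 and 46.5 FPKM at Day 1 and 83.2, 54.1 and 69.3 FPKM at Day 5, its highest mean. It was still at 37.4, 30.9 and 38.6 FPKM at Day 20. In the order of the 6 age means from Day 1 to Day 20 each neighbour overlapped the next in range, while all mice of Day 20 were below all mice of Days 1, 3 and 5. At Day 25 it was at 0.859, 0.241 and 0.421 FPKM, and in the 9 mice of Days 30, 45 and 60 it was at most 0.157 FPKM. With 1 fragment worth about 0.00692 FPKM for this transcript, these last values stand for about 1.68 to 22.7 fragments, so their order cannot be read. The fall from Day 20 to Day 25 was -4.62 on the log2(FPKM + 1) scale (SE 0.25, limma adjusted p = 9.05e-14), and neither range came near the other.

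Cyp3a44 and Cyp3a41a had their highest mean at Day 5, as Cyp3a16 did, but fell further before weaning. Mean FPKM at Days 5 and 20 was 157 and 9.34 for Cyp3a44 and 75.6 and 4.18 for Cyp3a41a. For Cyp3a16 it was 68.9 and 35.6. Cyp3a44 was at 0.954, 0.941 and 1.18 FPKM at GD17.5 (mean 1.03, and 1.07 without replicate 2). It reached 145, 175 and 152 FPKM at Day 5. It was at 87.9, 99.0 and 73.8 FPKM at Day 10, and the ranges of Day 5 and Day 10 did not overlap. The decline went on over the suckling ages, with 25.3, 36.5 and 31.9 FPKM at Day 15 and 7.53, 8.30 and 12.2 FPKM at Day 20. At Day 25 its values of 9.77, 4.74 and 7.80 FPKM overlapped those of Day 20, and at Day 30 they were 0.939, 2.34 and 0.850 FPKM. At Days 45 and 60 no mouse was above 0.350 FPKM. The differences called were those from Day 10 to Day 15 (log2 -1.45, SE 0.27, limma adjusted p = 0.000363), from Day 15 to Day 20 (-1.65, SE 0.27, limma adjusted p = 0.000463) and from Day 25 to Day 30 (-1.83, SE 0.27, limma adjusted p = 4.10e-05).

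Cyp3a41a followed the same course at a lower level, with the limit that its reads are largely shared with Cyp3a41b. It was at 76.1, 64.4 and 86.3 FPKM at Day 5, above every mouse of every other age. It was at 31.4, 19.2 and 27.7 FPKM at Day 10 and at 5.62, 7.26 and 7.32 FPKM at Day 15, a log2 difference of -1.79 (SE 0.24, limma adjusted p = 3.75e-06). Values at Day 20 were 3.82, 3.81 and 4.90 FPKM and at Day 25 they were 2.36, 3.07 and 2.47 FPKM, which did not overlap although the difference was not called (log2 -0.51, limma adjusted p = 0.232). At Day 30 the mice were at 0.447, 0.799 and 0.231 FPKM, lower than at Day 25 (log2 -1.30, SE 0.24, limma adjusted p = 0.00108). Of the 3 genes that were lost, Cyp3a41a kept the highest mean at Day 60, at 0.379 ± 0.228 FPKM (SD, n = 3), against 0.147 ± 0.0605 for Cyp3a44 and 0.09996 ± 0.0547 for Cyp3a16. Cyp3a11 had a mean of 2187 FPKM at that age. Of its 100-base windows, 0.223% also occur in Cyp3a44, and 0.123% of the Cyp3a16 windows occur in Cyp3a11. Whether Cyp3a11 reads are part of these low values, and of the fold differences taken from them, was not tested.

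Cyp3a11, the main adult form, had the highest mean FPKM of the 8 measured members at all 12 ages, although Cyp3a16 was above it in 1 of the 3 mice at GD17.5. It was at 8.83, 8.26 and 10.8 FPKM at GD17.5 (mean 9.30, and 9.81 without replicate 2) and at 85.7, 31.7 and 32.6 FPKM at Day 0. At Day 1 it reached 533, 377 and 516 FPKM. This first peak was followed by lower and tightly grouped values of 258, 258 and 263 FPKM at Day 3. Higher values followed, with 630, 630 and 599 FPKM at Day 15, 1351, 789 and 1102 FPKM at Day 25 and 1815, 1704 and 1446 FPKM at Day 30. Days 30, 45 and 60 overlapped in range, as did Days 15, 20 and 25 taken in order. Its step from Day 10 to Day 15 (log2 0.85, SE 0.27, limma adjusted p = 0.0369) was lost without Day 10 replicate 2 or 3 or any 1 mouse of Day 15, with limma adjusted p up to 0.132 (without Day 10 replicate 3).

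Cyp3a25 and Cyp3a59 had a peak at Day 1, a trough at Day 5 and a second, lasting rise from Day 15. A Day 1 peak followed by lower means was also found in Cyp3a11, Cyp3a13 and Cyp3a57. Cyp3a25 was at 87.8, 62.2 and 65.5 FPKM at Day 1, at 20.1, 10.9 and 16.7 FPKM at Day 5 and at 56.3, 56.9 and 47.5 FPKM at Day 15. Cyp3a59 was at 22.4, 23.4 and 15.4 FPKM at Day 1, at 6.35, 4.33 and 5.88 FPKM at Day 5 and at 28.8, 31.4 and 25.6 FPKM at Day 15. In both genes the Day 5 mice were below all mice of Days 1 and 15. They parted late. Cyp3a25 stayed between 69.3 and 111 FPKM in all mice from Day 20 on. Cyp3a59 was highest at Day 20 (57.8, 42.6 and 35.1 FPKM) and stood at 26.5, 19.3 and 17.2 FPKM at Day 45. Both were close to absent before birth, at most 0.0483 FPKM and at most 0.0704 FPKM at GD17.5. At Day 0 Cyp3a25 was at 10.9, 2.21 and 4.69 FPKM, a range that overlapped neither GD17.5 nor Day 1.

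Cyp3a57, on the far side of the cluster from Cyp3a25 and Cyp3a59 but like them in sequence, had the lowest mean of the measured members from GD17.5 to Day 20. It was at 0.0314, 0 and 0 FPKM at GD17.5, where 0 is a listed value, and at no more than 1.13 FPKM in any mouse. Its highest age mean was 0.992 FPKM, under the 1 FPKM needed for testing. Its values were 0.996, 1.13 and 0.794 FPKM at Day 1 and 0.325, 0.204 and 0.213 FPKM at Day 10. At Day 60 they were 1.13, 1.11 and 0.728 FPKM, so it showed the early peak and the later return of Cyp3a25. Cyp3a13, the gene outside the cluster, varied least of the measured members after birth. It was at 2.42, 2.07 and 2.13 FPKM at GD17.5 and at 35.2, 14.1 and 8.57 FPKM at Day 0. All later mice were between 17.6 and 45.3 FPKM, and the 7 ages with the highest means overlapped as neighbours in the order. Its mean was 34.9 FPKM at Day 1, 17.7 at Day 5 and 29.4 at Day 15. As in Cyp3a25 and Cyp3a59, its Day 5 mice were below all mice of Days 1 and 15.

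As shares of the summed FPKM of the 8 measured genes in each mouse, Cyp3a11 and the 3 early forms together were near parity around Day 5. Cyp3a16, Cyp3a41a and Cyp3a44 together held 47.2% ± 3.07 (SD, n = 3) at GD17.5 (48.7% without replicate 2) and 25.5% ± 6.19 at Day 1. They were back at 45.7% ± 0.573 at Day 5 and lower at each later age given, with 28.6% ± 1.11 at Day 10, 5.66% ± 1.57 at Day 20 and 0.847% ± 0.0248 after weaning at Day 25. Cyp3a11 held 42.2% ± 3.24 at GD17.5 (41.2% without replicate 2), 48.3% ± 1.27 at Day 5, 75.2% ± 3.02 at Day 20 and 93.1% ± 0.570 at Day 60. Among the early forms the leading one changed, since Cyp3a16 made up 37.7% ± 3.18 of the sum before birth (39.0% without replicate 2) and Cyp3a44 23.8% ± 2.69 at Day 5. The sum itself was 22.1 ± 3.05 FPKM at GD17.5, 807 ± 85.6 at Day 1, 660 ± 7.59 at Day 5 and 2350 ± 427 at Day 60.

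**Figure D3:**
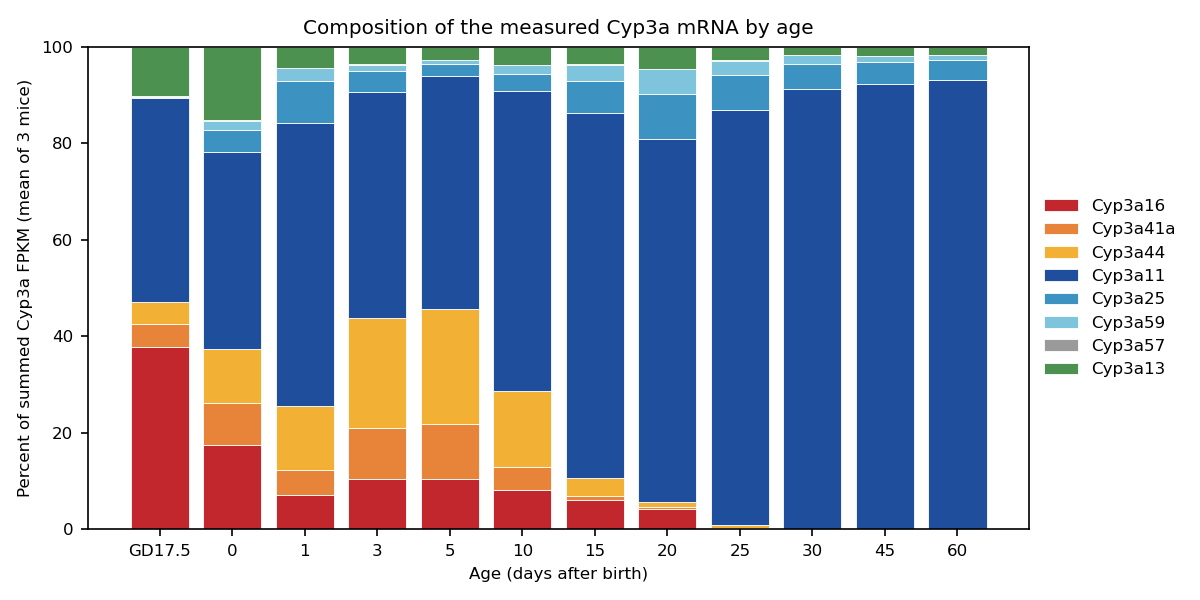
Percent of the summed FPKM of the 8 measured Cyp3a genes (mean of 3 mice) against age, with 1 colour per gene. The 3 early forms at the bottom hold 45.7% at Day 5 and 0.847% at Day 25, and Cyp3a11 holds 93.1% at Day 60.

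The exchange of forms was also followed in mice that the choice of genes did not use. Days 25, 30 and 45 were compared with Days 10, 15 and 20 (9 mice each). These ages lie between those that chose the genes, so the directions were largely set in advance. The calls give the size of the change across these ages and are no independent support for it. Of the 7 members tested, those whose mean reached 1 FPKM at some age, 6 were called, against 57.6% of all genes. Cyp3a16 reached that mean only at ages up to Day 20. After weaning 3 were higher, where 11.4% of 11149 genes were higher, and 3 were lower, where 46.2% of all genes were lower (limma on log2(FPKM + 1), Benjamini-Hochberg adjusted p under 0.05 over all genes). The median log2 fold change was 0.17 for the members and -0.22 for all genes. Cyp3a11 was higher by 1.47 (SE 0.16, limma adjusted p = 6.95e-09) and Cyp3a25 by 0.97 (SE 0.17, limma adjusted p = 2.13e-05). Cyp3a16 was lower at -5.16 (SE 0.15, limma adjusted p = 7.67e-22), Cyp3a44 at -3.43 (SE 0.15, limma adjusted p = 5.18e-17) and Cyp3a41a at -2.43 (SE 0.14, limma adjusted p = 8.52e-15). Cyp3a59 passed narrowly at 0.33 (SE 0.14, limma adjusted p = 0.0423), which was lost in 11 of the 18 fits that left out 1 of these mice, with limma adjusted p up to 0.0969 (without Day 10 replicate 2 or 3, Day 15 replicate 1 or 3, Day 20 replicate 2 or 3, Day 25 replicate 1 or 3, Day 30 replicate 1 or 2, or Day 45 replicate 1). Cyp3a13 was not called (log2 0.17, SE 0.16, limma adjusted p = 0.358). Of all genes called, 19.7% were higher, and 33.4% after upper-quartile scaling of the libraries, under which the 6 called members kept their directions.

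RNA of other cells differed between these ages too. The summed FPKM of 10 erythroid markers was between 2628 and 19505 at Days 10 to 20 and between 924 and 6802 at Days 25 to 45. The sum of 10 pancreatic acinar markers was between 8.30 and 9728 FPKM at Days 10 to 20 and between 5.72 and 6169 FPKM at Days 25 to 45. At Day 25, 3 of the 10 were under 0.1 FPKM in all 3 mice, and at the other 5 ages none was. The 8 hepatocyte markers with a row summed to between 91560 and 135894 FPKM and between 73282 and 91542 FPKM. Of 8 intestinal markers Fabp2 made up most of the sum, and at least 6 of the 8, Sis and Cdx2 among them, were under 0.1 FPKM in every mouse of Days 10 to 45. Within Day 20, the mouse with the most acinar RNA had Cyp3a16 at 30.9 FPKM and the others at 37.4 and 38.6 FPKM. The part of these cells in the differences of whole groups was not tested.

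The steps among Days 0, 1, 3 and 5 lie within the neonatal ages whose levels chose the genes. The members' differences and calls there are a description and not support for a change in the family, and no p-value is given for them. From Day 0 to Day 1 all 7 tested members were called as higher, where 31.6% of all genes were called, 23.7% as higher and 7.88% as lower, with a median log2 difference of 2.85 for the members and 0.19 for all genes. The median of all genes was 0.08 with upper-quartile scaling and 0.31 with values scaled to a common sum, and the higher share of all calls was 55.0% and 83.5% in place of 75.0%. The difference was 3.58 (SE 0.29) for Cyp3a25, 3.37 (SE 0.27) for Cyp3a11, 3.06 for Cyp3a44, 2.85 for Cyp3a59, 1.98 for Cyp3a41a, 1.55 for Cyp3a16 and 1.04 for Cyp3a13. Cyp3a13 was not called without Day 0 replicate 3 (log2 0.61), and without Day 0 replicate 1, the library with muscle RNA, all 7 calls stayed. From GD17.5 to Day 0, which was not tested, all 8 measured genes had a higher mean at Day 0, with Cyp3a25 going from 0.0423 to 5.93 FPKM and Cyp3a11 from 9.30 to 50.0 FPKM. The mean summed FPKM of 8 hepatocyte markers went from 14365 to 77592 over that step. That of 10 erythroid markers went from 171482 to 79425. The part of the cell mixture in the differences of the Cyp3a genes was not tested.

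From Day 1 to Day 3, 3 members were called as lower and none as higher (11.3% of all genes called, 3.09% as lower and 8.22% as higher), namely Cyp3a25 at -1.55 (SE 0.29), Cyp3a59 at -1.32 (SE 0.24) and Cyp3a11 at -0.85 (SE 0.27). The call of Cyp3a11 was lost without Day 1 replicate 1 or 3 or any 1 mouse of Day 3. None of the 3 early forms was called, and Cyp3a41a was at 0.50 (SE 0.24). The higher share of all calls at this step was 72.7%, and 50.4% with upper-quartile scaling. Day 1 was timed from birth and Day 3 by the hour, so time of day may differ too. Its part in these differences cannot be told apart from that of age. From Day 3 to Day 5 no member was called (3.2% of all genes called, 1.09% as higher and 2.12% as lower).

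From Day 10 to Day 15, 5 members were called (12% of all genes), and they divided by direction. Cyp3a59 was higher by 1.52 (SE 0.24, limma adjusted p = 5.26e-05), Cyp3a25 by 1.38 (SE 0.29, limma adjusted p = 0.00159) and Cyp3a11 by 0.85 (1.52% of all genes were higher), while Cyp3a41a and Cyp3a44 were lower (10.5% of all genes). Cyp3a16 was at 0.13 at that step (limma adjusted p = 0.873). The median of all genes at this step was -0.12, and -0.01 with upper-quartile scaling.

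At the later steps the members called were early forms, while the mean of Cyp3a11 went on rising without a call. From Day 15 to Day 20 Cyp3a44 was the 1 member called, as lower (1.99% of all genes called, 1.16% as lower). From Day 20 to Day 25, across weaning, Cyp3a16 was the 1 member called, also as lower (7.19% of all genes called, 3.26% as lower), with Cyp3a44 at -0.31 (limma adjusted p = 0.594) and Cyp3a11 at 0.66 (limma adjusted p = 0.156). From Day 25 to Day 30 Cyp3a44 and Cyp3a41a were the 2 members called, both as lower (1.64% of all genes called, 0.807% as lower). Cyp3a11 was at 0.64 at that step (limma adjusted p = 0.390), and its ranges at Days 25 and 30 did not overlap. From Day 30 to Day 45 no member was called (1.03% of all genes called, 0.233% as higher and 0.798% as lower), with 2 at an unadjusted limma p under 0.05, of which Cyp3a44 was at -0.91 (limma adjusted p = 0.119). On the log2(FPKM + 1) scale a gene below 1 FPKM can move little, so the lack of a call for Cyp3a16 after Day 25 says little about it.

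Ratios of FPKM within a mouse, which do not depend on the scaling of its library, gave the balance between members as a description with no test. In the 3 mice of each age the ratio of Cyp3a16 to Cyp3a44 was between 0.354 and 0.628 at Day 10, between 3.16 and 4.96 at Day 20 and between 0.0508 and 0.0879 at Day 25. The ratio of Cyp3a16 to Cyp3a41a was between 1.58 and 1.82 at Day 10, between 7.89 and 9.77 at Day 20 and between 0.0784 and 0.365 at Day 25. Cyp3a16 was above both other early forms in every mouse of Day 20 and below both in every mouse of Day 25. Cyp3a11 stood between 14.3 and 23.9 times Cyp3a16 at Day 20 and between 1572 and 3274 times at Day 25. The ratio of Cyp3a59 to Cyp3a25 was between 0.235 and 0.376 at Day 1, between 0.491 and 0.601 at Day 20 and between 0.242 and 0.249 at Day 45. The ranges of Day 20 and Day 45 did not overlap, while that of Day 45 lay within that of Day 1.

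**Figure D4:**
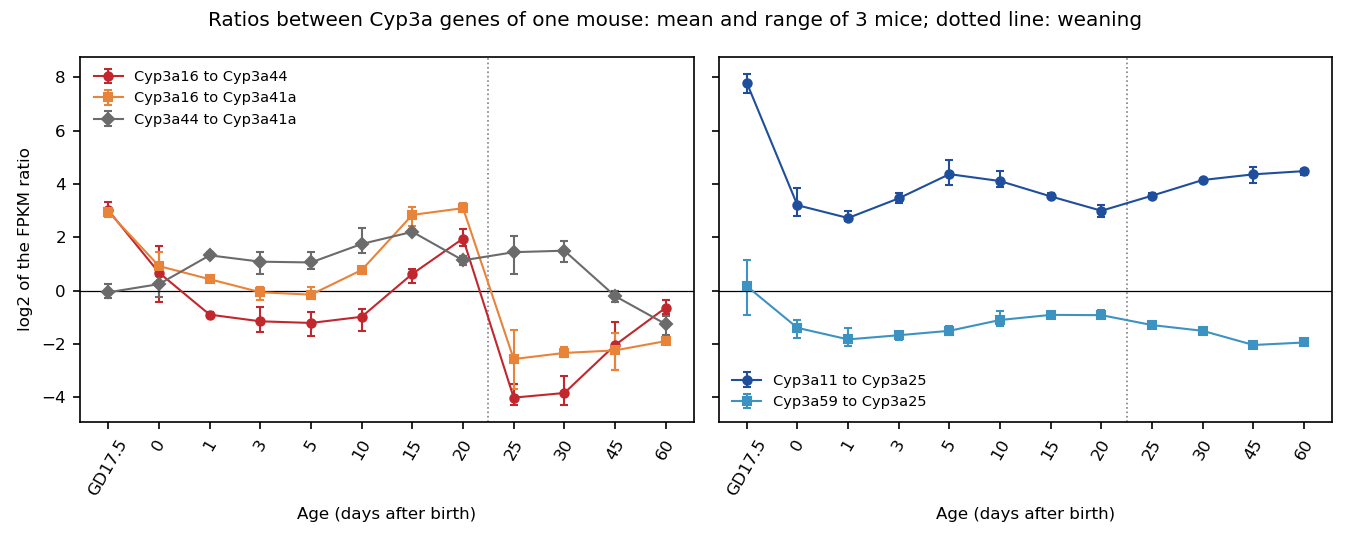
Log2 of the FPKM ratio between pairs of Cyp3a genes in the same mouse against age, as the mean of 3 mice with bars from the lowest to the highest mouse. On the left the mean for Cyp3a16 to Cyp3a44 is 1.96 at Day 20 and -4.01 at Day 25, and on the right that for Cyp3a59 to Cyp3a25 is -0.91 at Day 20 and -2.03 at Day 45.

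Genes that act with the Cyp3a enzymes or on their genes were counted in the same fit. Of 18 tested regulators, which are nuclear receptors, liver-enriched factors and clock factors known to act on Cyp3a genes, 8 were lower and 1 was higher at Days 25 to 45 than at Days 10 to 20 (46.2% and 11.4% of all genes), with a median log2 fold change of -0.31. Upper-quartile scaling gave 3 lower and 3 higher, so no direction of the list as a group can be read. The largest fall was that of Dbp, a clock-controlled activator, at -2.23 (SE 0.17, limma adjusted p = 9.76e-12), and the rise was that of Nfil3, a repressor that binds the same sites, at 0.56 (SE 0.12, limma adjusted p = 0.000319). Nr1i2 and Nr1i3, named here after their values were seen, were lower by small amounts (log2 -0.37 and -0.35, limma adjusted p = 0.00103 and 0.00643), and with upper-quartile scaling Nr1i3 was not called (log2 -0.19, limma adjusted p = 0.129). In the first day of life, 7 of the 18 were higher and 1 lower (23.7% and 7.88% of all genes), with Nr1i2 higher by 0.85 (limma adjusted p = 0.000215) and Nr1i3 by 1.08 (limma adjusted p = 7.51e-05).

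Of the partners of P450 enzymes, 5 were tested, 3 of them higher and 2 lower after weaning (11.4% and 46.2% of all genes). Por, the oxidoreductase that feeds electrons to the Cyp3a enzymes, was at 132, 132 and 225 FPKM at Day 20 and at 87.8, 88.7 and 83.4 FPKM at Day 25. Over Days 25 to 45 it was lower by -1.27 (SE 0.14, limma adjusted p = 2.17e-08), while Cyp3a11 was higher in the same mice. Cyb5b, a cytochrome b5 of the outer mitochondrial membrane, was higher by 1.64 (SE 0.14, limma adjusted p = 1.50e-10).

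Genes known to differ between the sexes in adult liver, where growth hormone pulses set the difference, were counted at each step at which an early Cyp3a form fell. From Day 10 to Day 15, where Cyp3a41a and Cyp3a44 were lower, 2 of 10 tested female-predominant genes were higher and none lower, and of 12 tested male-predominant genes none was higher and 1 lower (1.52% and 10.5% of all genes). From Day 15 to Day 20, where Cyp3a44 was lower, 2 female-predominant genes and 1 male-predominant gene were higher and none was lower (0.834% and 1.16% of all genes). From Day 25 to Day 30, the step of Cyp3a44 and Cyp3a41a, 6 of 10 tested female-predominant genes were lower (0.807% of all genes) and none was higher, and all 12 tested male-predominant genes were higher (0.834% of all genes). From Day 20 to Day 25, the step of Cyp3a16, 5 of the 10 female-predominant genes were higher and 3 lower (3.94% and 3.26% of all genes), and 7 of the 12 male-predominant genes were higher. Over Days 25 to 45 against Days 10 to 20 the female-predominant genes divided evenly, with 5 lower, led by the sulfotransferase Sult2a1 at -4.83 (SE 0.14, limma adjusted p = 1.87e-21), and 5 higher, led by Cyp2a4 at 2.20 (SE 0.31, limma adjusted p = 1.21e-06). Part of the higher ones reversed after Day 25. From Day 20 to Day 25 and on to Day 30, A1bg was at 5.01 and -4.59 and Cyp17a1 at 2.12 and -2.32. Cyp2a4 was at 2.55 and -1.49, the fall not called (limma adjusted p = 0.254). Cyp2c40 was at 0.87 and 0.12 and Cyp2c69 at 0.91 and -0.24. Over Days 25 to 45 against Days 10 to 20 all 12 male-predominant genes were higher, with a median of 3.22, led by the urinary protein Mup20 at 6.41 (SE 0.14, limma adjusted p = 7.27e-25). Of 10 genes of growth hormone signalling, 2 were higher and 4 lower (11.4% and 46.2% of all genes), with Igf1, the main hormone made by the liver under growth hormone, higher by 1.00 (SE 0.08, limma adjusted p = 2.57e-11) and Cux2, a factor that female liver uses, lower at -1.45 (SE 0.10, limma adjusted p = 1.57e-12). Cux2 is counted in both lists.

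The genes that flank the cluster did not share its range of change. Within 300 kb of its ends the annotation holds 19 other genes, of which 16 had a row and 13 were tested. Over Days 25 to 45 against Days 10 to 20, 5 were lower and 1 was higher (46.2% and 11.4% of all genes), the largest fall being that of Arpc1b, a subunit of the actin-nucleating Arp2/3 complex, at -0.71 (SE 0.14, limma adjusted p = 0.000157), and the rise that of Zkscan14 at 0.18 (limma adjusted p = 0.0359). Their median was -0.18, near the -0.22 of all genes. From Day 20 to Day 25, where Cyp3a16 moved by -4.62, 1 of the 13 was called, as lower (3.26% of all genes).

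The genes with the most similar course over the 36 mice were sought by Pearson's r of log2(FPKM + 1) among all tested genes, as a description, since mice of 1 age share that age. Among the members, r was 0.971 between Cyp3a25 and Cyp3a59, 0.970 between Cyp3a41a and Cyp3a44, 0.962 between Cyp3a11 and Cyp3a25 and 0.862 between Cyp3a16 and Cyp3a44. For Cyp3a11 it was -0.41 with Cyp3a16 and -0.14 with Cyp3a44. Outside the family, Cyp3a11 was most like Phyh (0.979), a peroxisomal enzyme of phytanic acid breakdown, followed by Mgst1 (0.962) and Scarb2 (0.960). Cyp3a25 was also most like Phyh (0.946), then Ces2a (0.942) and Acaa1b (0.942), and Cyp3a59 was most like Bbox1 (0.938), Inca1 (0.936) and Phyh (0.919). Cyp3a16 was most like Pde6c (0.976), Hand2 (0.947) and Dqx1 (0.946). Cyp3a41a was most like Cga (0.949), E130309F12Rik (0.942) and Hadhb (0.939), Cyp3a44 most like Calml4 (0.947), Tm4sf4 (0.943) and Defb1 (0.941), and Cyp3a13 most like Azgp1 (0.933), Serpina1d (0.931) and Apoa5 (0.930).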

How the data were processed

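Liver RNA of 36 male mice (12 ages, 3 mice each) was measured by RNA-Seq. The authors selected polyadenylated RNA, sequenced paired ends of 100 bases, mapped the reads to NCBI37/mm9 with TopHat 1.2.0, used Cufflinks 1.0.3 for abundance, with Ensembl as the reference annotation. The table used here, deposited by the authors, holds 1 FPKM value per gene symbol and mouse and no counts, and no scaling between libraries is named. Samples were grouped by the age in their labels.

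The Cyp3a genes and all gene lists were chosen with earlier results of these data known. The neonatal (Days 0 to 5) and adult (Day 60) levels chose the genes, so the contrast between them was not tested, and steps among the neonatal ages are a description for the members. Also untested were the steps from GD17.5 to Day 0, Day 5 to Day 10 and Day 45 to Day 60. Values were transformed to log2(FPKM + 1), which understates changes of low genes, and the 11149 genes whose mean reached 1 FPKM at some age entered a limma fit (limma 3.58.1, R 4.3.3). The fit had an age mean for each of the 12 ages, a mean-variance trend and no covariate. Benjamini-Hochberg adjustment was made over all tested genes of a comparison, with a threshold of 0.05. The p-values measure the spread between mice of 1 age. The fit was tested on simulated data with known changes. Ratios of FPKM were described with no test.

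Named beyond the family were, for each member, the 3 genes of highest r, for each list the largest called rise and fall, and genes flanking the cluster. Lists were regulators, growth hormone signalling, P450 partners, sex-predominant genes and cell type markers. Gene positions and transcript sequences were those of GENCODE M1, and promoter sequences those of RefSeq. Alternatives were a pseudocount of 0.1, no filter or a filter at 5 FPKM, upper-quartile scaling, a common sum of 1000000 (TPM), no trend, a block for the replicate number and each mouse left out. Replicate numbers of different ages name different animals. All else was computed in Python 3.11.15 (scipy 1.17.1, pandas 2.3.3, numpy 2.4.6, biopython 1.88, matplotlib 3.10.9). Cyp3a41b was not analysed here.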

Additional observations from a re-analysis of the deposited data

Results flagged for a closer look

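Xist was at 3.27 FPKM in the liver of GD17.5 replicate 2, against at most 0.109 FPKM in the other 35 libraries, in a gene that no comparison used. The 4 Y-linked genes checked summed to 4.24 FPKM in that library, within the 1.78 to 10.8 FPKM of all 36. Its Cyp3a11, Cyp3a16 and Cyp3a44 values (8.26, 6.54 and 0.941 FPKM) were the lowest of the 3 mice of that age.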

How the results depend on the processing

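No member changed direction in any called comparison under any alternative that was run. Members called from Day 30 to Day 45 numbered 0, and 1 (Cyp3a44) with a pseudocount of 0.1, with upper-quartile scaling and with TPM. Where 1 mouse was left out the filter was applied anew. Cyp3a57 then entered some of the fits, and up to 8 members were tested. With 1 mouse left out, called members ranged from 5 to 7 for Days 25 to 45 against Days 10 to 20, from 6 to 8 for Day 0 to Day 1, from 2 to 4 for Day 1 to Day 3, from 4 to 5 for Day 10 to Day 15 and from 0 to 1 for Day 30 to Day 45 (1 without Day 0 replicate 2), and stayed at 1, 1, 2 and 0 for Day 15 to Day 20, Day 20 to Day 25, Day 25 to Day 30 and Day 3 to Day 5. Calls of Cyp3a11 at Day 1 to Day 3 (with a pseudocount of 0.1 or no filter) and at Day 10 to Day 15 (limma adjusted p = 0.0619 without the filter), and of Cyp3a59 after weaning (limma adjusted p = 0.0677 with a pseudocount of 0.1, 0.0603 without the filter and 0.0535 with TPM) were lost in this way, and the cause was not tested. Without Cyp3a13 in the sum, Cyp3a11 held 49.7%, 78.8%, 88.5% and 94.6% at Days 5, 20, 25 and 60, and the 3 early forms held 46.9% at Day 5.

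With the replicate number as a block, 6 members were called at Days 25 to 45 against Days 10 to 20 and 7 from Day 0 to Day 1, and the block changed no call of a member (regulators counted as higher after weaning went from 1 to 2). Replicate numbers of different ages name different animals, and they were not taken as pairs: 104 of 198 same-number pairs had r over 0.1. The median r was 0.13 for the same and -0.05 for another number, and 19 of 36 mice were most like their own number, where an even spread would give 12, which is a hint from the data and not from the design. A sum of Cyp3a41a and Cyp3a41b was planned and not run, since Cyp3a41b was not analysed here. The regulators counted as lower after weaning numbered 8, between 3 and 5 under upper-quartile scaling, TPM and no filter, 4 without Day 10 replicate 1 or Day 20 replicate 2, and 5 without Day 15 replicate 1 or 2, Day 20 replicate 3 or Day 30 replicate 1. Those counted as higher went from 1 to 2 with 1 of 9 mice left out, and the neighbours counted as higher from 1 to between 0 and 2 with 1 of 11 left out. All genes called from Day 3 to Day 5 numbered 357, and 174 with a pseudocount of 0.1, and those from Day 30 to Day 45 numbered 115, and 228 with that pseudocount. After weaning 6417 genes were called, and 4131 with a filter at 5 FPKM. Leaving out 1 mouse moved the number of all genes called from 3519 to 2046 (Day 0 replicate 3) or 2270 (Day 1 replicate 1) for Day 0 to Day 1, from 1260 to between 730 and 831 (Day 1 replicate 3, Day 3 replicate 2 or 3) for Day 1 to Day 3, from 357 to between 195 and 233 (Day 3 replicate 1 or 2, Day 5 replicate 2) for Day 3 to Day 5 and from 1337 to between 672 and 883 (Day 10 replicate 2, Day 15 replicate 2 or 3) for Day 10 to Day 15. It went from 222 to between 79 and 102 (Day 15 replicate 1, Day 20 replicate 2 or 3) for Day 15 to Day 20, from 802 to 522 (Day 20 replicate 3) for Day 20 to Day 25, from 183 to 117 (Day 25 replicate 3) for Day 25 to Day 30 and from 115 to between 38 and 60 (Day 30 replicate 2, Day 45 replicate 1 or 2) for Day 30 to Day 45, so the shares of all genes given beside the members carry that spread. Each age rests on 3 mice, and values under about 0.1 FPKM rest on few fragments.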
